A study of Mus musculus with 6 samples.

Results

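The comparison described here sets a mouse endothelial cell line labelled VE+N, which per its label expresses both VE-cadherin and N-cadherin, against a line labelled N, which per its label expresses N-cadherin. The arrays were chosen by the line named in their titles, which gave 4 of the 6 arrays of the series, 2 for each line. The remaining 2 arrays belong to another line, labelled VE, whose values are given for some of the genes below. All 3 lines were derived from embryonic stem cells. Cells were seeded at 50000 per square centimetre, grown for 72 h and then starved for 18 to 20 h in medium holding 1% albumin, so both lines compared were confluent and serum-starved. From each extract 150 ng of RNA was labelled and hybridised to an Affymetrix whole-transcript array of mouse genes.

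Each cadherin state was represented by 1 line, so an effect of VE-cadherin and any other difference between the lines cannot be told apart. The 2 arrays of a line came from different RNA extractions, titled biological replicates. Whether those were separate cultures is not given in the sources used here. If they did not, p-values reflect only how far these RNA samples scatter, which may be technical.

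VE-cadherin (Cdh5) forms the adherens junctions of endothelium, and N-cadherin (Cdh2) is the other classical cadherin of these cells, often found outside the junction and at contacts with mural cells. Clustering of VE-cadherin is known to restrain growth factor signalling in confluent endothelium and to alter transcription through catenins and kinases that its cytoplasmic tail holds. Genes that respond to growth factors, stress and blood flow are therefore the usual readouts of such lines.

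Levels below are log2 values, on which 1 unit is a doubling, and differences are VE+N minus N. "Rose" and "fell" mean a positive and a negative difference at a limma p-value below 0.05 after Benjamini-Hochberg adjustment over all 19936 genes. Olfactory and vomeronasal receptor genes, taken as a guide to the dim end of the scale, had 95% of their levels at or under 4.25, and a level there is called dim. A difference against a dim line is approximate, because background limits how low a signal can read.

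The labels were checked on the cadherins and on markers of cell types. Cdh2 read 7.66 and 7.67 on the N arrays and 6.69 and 6.70 on the VE+N arrays, a difference of −0.97 ± 0.0992 (SE, n = 2 and 2; adjusted p = 0.000315). The groups did not overlap. With 2 arrays a line that is common by chance, so here and below it only describes the values. The VE arrays read 5.8 and 5.93 for this gene, and no line was dim. Cdh5 read 7.26 and 7.30 on the N arrays and 7.05 and 7.16 on the VE+N arrays (−0.17, adjusted p = 0.366). That gene was therefore not higher in the line labelled as expressing its product, although the arrays do not show where the probes lie in the gene. Every direction below rests on the labels.

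Markers of endothelium were high in both lines. The 10 markers averaged 10.39 and 10.40 on the N arrays and 10.47 and 10.56 on the VE+N arrays. Kdr, the main VEGF receptor (0.53), Eng (0.43) and the transcription factor Erg (0.61) rose, Fli1 (−0.46) fell, and Pecam1, Tek, Tie1, Cd34 and Icam2 did not pass. Of 6 mural cell markers 4 fell, where 8.91% of all genes fell. The mean of the mural markers was 5.69 and 5.62 on the N arrays against 4.33 and 4.24 on the VE+N arrays. None of 5 haematopoietic, 4 pluripotency, 3 epithelial or 3 neural markers passed, while 1 of 4 fibroblast and 1 of 3 muscle markers fell. As only 19.1% of all genes were called, few or no calls in sets this small are a weak check on cell type. The fibroblast markers averaged 4.94 and 4.99 on the N arrays, 4.45 and 4.52 on the VE+N arrays, and 7.43 and 7.49 on the VE arrays. Ptprc and Spi1, which define blood cells, were dim in both lines. In bulk RNA, fewer cells of a type and less RNA per cell cannot be told apart.

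Over all genes, 3802 differed between the lines, 19.1% of those tested. Of these, 2025 were higher in the VE+N-labelled line (10.2% of all genes) and 1777 were lower (8.91%). The median difference was −0.00443, and 95% of genes lay between −0.92 and 0.99. A difference over 2-fold was found in 918 called genes (4.6%), 488 higher and 430 lower, and over 16-fold in 16 higher and 23 lower. In 388 called genes the lower line was dim, and 6117 genes were dim in both lines. Arrays of the same line differed by an SD of 0.185 (N) and 0.244 (VE+N) across genes, and arrays of the 2 lines by 0.525 to 0.559. The calls numbered 2243 when N replicate 1 was left out and 2263 when N replicate 2 was.

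**Figure D1:**
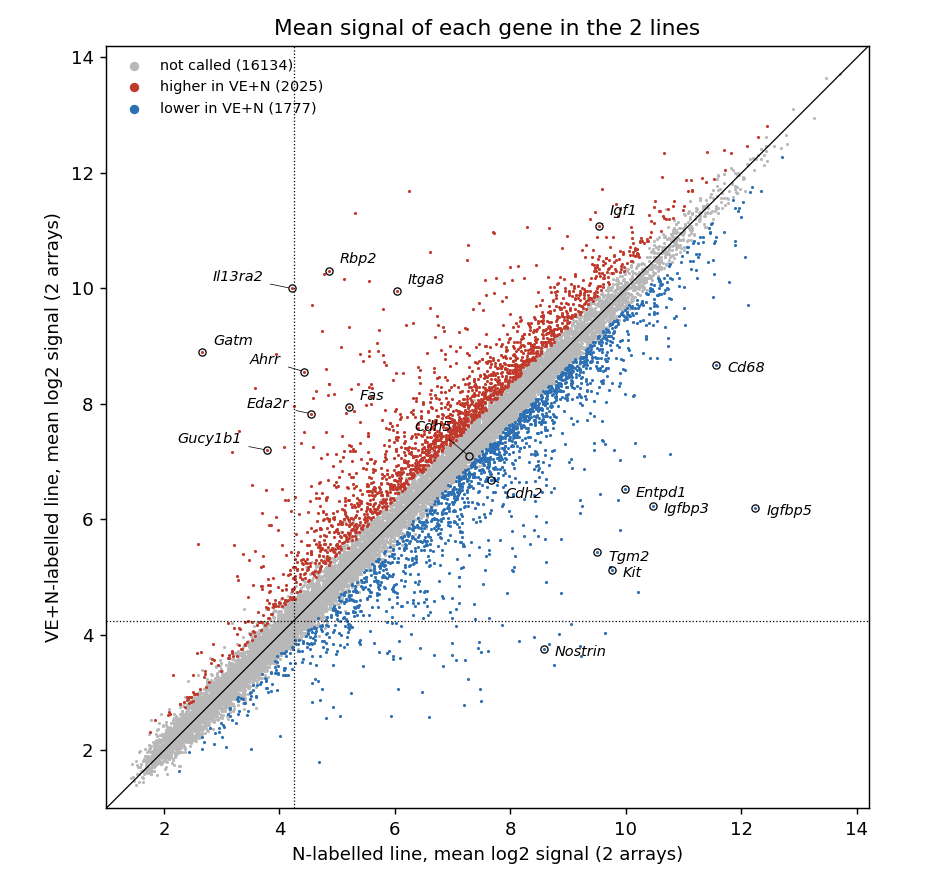
Mean log2 signal of 19936 genes in the N-labelled line (horizontal axis) and the VE+N-labelled line (vertical axis), each a mean of 2 arrays; red and blue points are the 2025 higher and 1777 lower calls, grey points were not called, the solid line marks equality and the dotted lines mark the dim level of 4.25. Igfbp5 and Gatm lie far from the line of equality, while Cdh5 lies on the grey band.

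Genes known as direct targets of p53, the transcription factor of the DNA damage and stress response, rose in 15 of 31 measured and fell in 0 by limma, 48.4% against 10.2% of all genes, and their median difference was 0.41. At an unadjusted p under 0.05, 1 gene was lower, and the analysis of variance called 12 higher and 0 lower. Over all 19936 genes that analysis called 960 higher and 907 lower, the background for its calls in each list below. Eda2r, a death receptor of the TNF family, read 4.58 and 4.52 on the N arrays and 7.62 and 8.05 on the VE+N arrays (3.29 ± 0.160, adjusted p = 5.59e-06). Fas, the archetypal death receptor, read 5.23 and 5.18 against 7.95 and 7.92 (2.73 ± 0.0984, adjusted p = 1.30e-06). Mdm2, the ubiquitin ligase that p53 induces and that degrades it, read 7.94 and 7.95 against 9.18 and 9.25 (1.27 ± 0.110, adjusted p = 0.000135). In each of these 3 genes both VE+N arrays lay above both N arrays. Trp53inp1, a regulator of autophagy and cell death, rose by 1.95, the RNA-binding protein gene Zmat3 by 1.52, and Sesn1 and Sesn2, which restrain mTORC1 under stress, by 1.88 and 1.49. Cyclin G1 (Ccng1) rose by 0.86. Plk2 (0.21, adjusted p = 0.271) and the death receptor Tnfrsf10b (−0.28, adjusted p = 0.103) did not pass.

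For Eda2r, Fas, Mdm2 and Sesn1 the mean of the VE-labelled line lay between those of the other lines. Mean levels in the VE-labelled line were 6.67 for Eda2r, 7.15 for Fas, 8.42 for Mdm2 and 6.90 for Sesn1. The VE+N-labelled line was higher than the VE-labelled line as well, by 1.17 for Eda2r (adjusted p = 0.00292), 0.79 for Fas (adjusted p = 0.00187), 0.79 for Mdm2 (adjusted p = 0.00314) and 0.97 for Sesn1 (adjusted p = 0.00249), in the same limma fit. Of 31 apoptosis regulators 2 rose (6.45% against 10.2% of all genes) and 6 fell (19.4% against 8.91%). Fewer were called when either N array was left out. Those that fell included Bcl2l11, which encodes the killer protein Bim, at −1.60, and the survival gene Bcl2 at −0.88.

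Cell cycle genes moved in part. Of 29 G1 cyclins, kinases and inhibitors 8 rose (27.6% against 10.2% of all genes) and 5 fell (17.2% against 8.91%). The inhibitors Cdkn2a and Cdkn2b fell by 0.88 and 0.76 and Cdkn1c by 0.97, whereas Cdkn2c rose by 1.07. Myc, which drives growth, read 8.28 and 8.39 on the N arrays and 7.50 and 7.33 on the VE+N arrays (−0.92), and Ccnd1 rose by 0.44. Of 69 mitosis and spindle genes 4 rose and 4 fell, 11.6% against 19.1% of all genes, and Mki67, the common marker of proliferation, read 7.94 and 7.75 against 8.0 and 7.97 (adjusted p = 0.543). Of 63 DNA replication genes 6 rose (9.52% against 10.2% of all genes) and 12 fell (19% against 8.91%). Of these, 3 that rose lie on chromosome 10 and 5 that fell on chromosome 5. Both counts were smaller without an N array, at 4 and 3 mitosis genes and at 8 and 9 replication genes without N replicate 1 and N replicate 2, and replication calls numbered 11 without VE+N replicate 2.

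Kruppel-like factors include Klf2 and Klf4, which laminar flow induces in endothelium. Of 13 measured 7 rose (53.8% against 10.2% of all genes) and 1 fell (7.69% against 8.91%), with a median of 0.41. Klf9, a hormone-responsive member, read 6.79 and 6.81 on the N arrays and 8.91 and 8.95 on the VE+N arrays (2.12 ± 0.0944, adjusted p = 3.82e-06). Klf2 read 7.83 and 8.01 against 9.05 and 8.80 (1.00 ± 0.130, adjusted p = 0.00111), and Klf4 7.86 and 7.91 against 8.81 and 8.61 (0.83, adjusted p = 0.00164). The groups did not overlap in any of the 3. Klf12, dim in both lines, fell by 0.81, and Klf6 (−0.22, adjusted p = 0.197) and Klf10 (0.02, adjusted p = 0.929) did not pass. Without N replicate 1, and likewise without N replicate 2, 5 members were called, and the analysis of variance called 2 higher and 1 lower.

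Immediate early genes, which growth factor signals switch on within minutes, fell more often than they rose, 15 against 5 of 35, with a median of −0.23. Lower calls made up 42.9% against 8.91% of all genes, and higher calls 14.3% against 10.2%. The analysis of variance called 8 lower and 4 higher. Fosl2, an AP-1 subunit, read 9.50 and 9.41 on the N arrays and 7.25 and 7.39 on the VE+N arrays (−2.13 ± 0.117, adjusted p = 1.06e-05). The orphan nuclear receptors Nr4a1 and Nr4a2 fell by 1.67 and 1.07. Fos, Egr1 and Jun fell by 0.67, 0.76 and 0.39. The 5 that rose included Btg2, an antiproliferative gene that p53 also induces (7.77 and 8.0 against 10.14 and 10.05), the small GTPase gene Gem (1.94) and Ier5 (1.19).

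Genes of the insulin-like growth factor system fell more often than they rose. Its ligands act through the Igf1 receptor, and secreted binding proteins hold them back or deliver them. Of 26 measured genes 1 rose and 14 fell, 53.8% against 8.91% of all genes, and the median was −0.52. Without N replicate 2, 1 rose and 9 fell, and the analysis of variance called 1 higher and 7 lower. Igf1 read 9.44 and 9.62 on the N arrays and 11.07 and 11.08 on the VE+N arrays (1.54 ± 0.108, adjusted p = 4.22e-05). The fetal ligand Igf2 read 9.60 and 9.61 against 7.45 and 7.27 (−2.24 ± 0.113, adjusted p = 6.66e-06). The 2 ligands thus moved in opposite directions, with no overlap between lines in either. The binding protein gene Igfbp5 read 12.23 and 12.24 in the N-labelled line and 6.17 and 6.23 in the VE+N-labelled line, 65.5-fold lower (−6.03 ± 0.120, adjusted p = 1.99e-07). Igfbp3 read 10.39 and 10.52 against 6.25 and 6.23, 18.6-fold lower. Stanniocalcin 1 (Stc1), which blocks the protease that frees Igf ligands, fell by 2.41, and the mRNA-binding protein gene Igf2bp3 by 0.98. Igfbp4 (−0.05, adjusted p = 0.804) and the adaptor Grb10 (−0.08, adjusted p = 0.651) did not pass. The receptor Igf1r, named after its value was seen, fell by 0.86.

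Of 29 imprinted genes related to growth 4 rose (13.8% against 10.2% of all genes) and 6 fell (20.7% against 8.91%), with a median of −0.04. Single members moved far. Mest read 8.07 and 8.22 on the N arrays and was dim on the VE+N arrays at 3.88 and 3.91 (−4.25), and Plagl1, a growth-restraining zinc finger gene, rose by 1.94. Peg10 fell by 1.35 and Kcnq1 by 1.82.

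**Figure D2:**
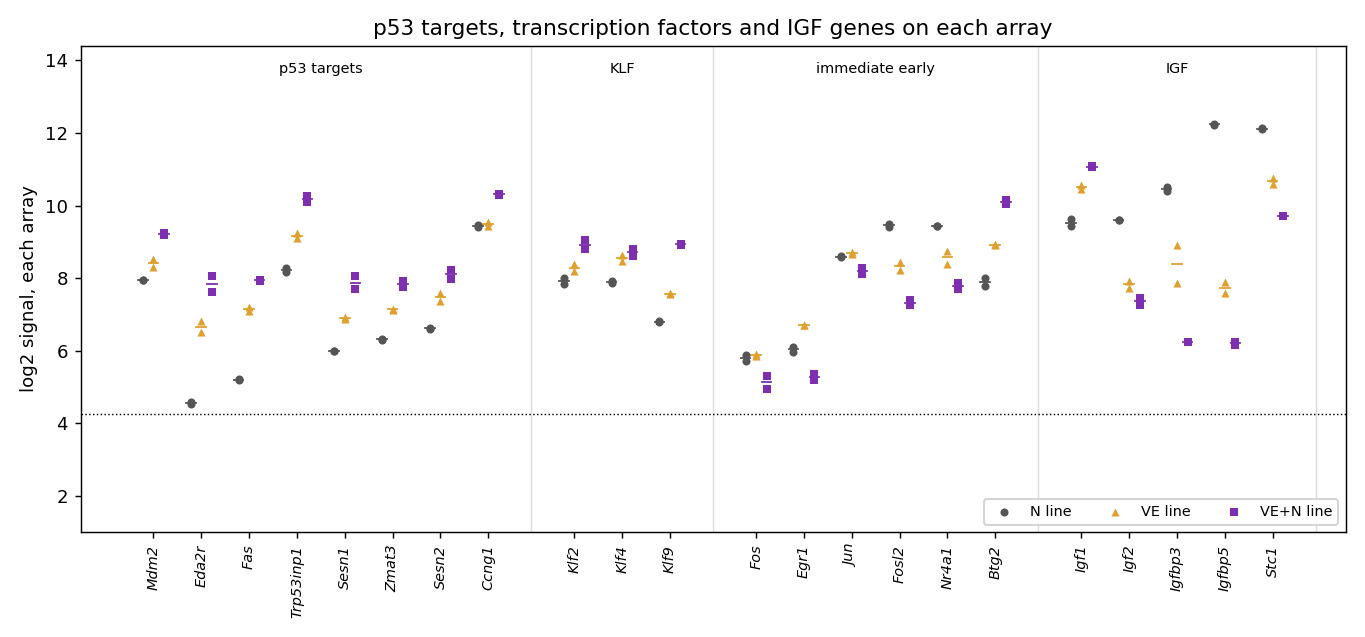
Log2 signal on each of the 6 arrays (vertical axis) for p53 targets, Kruppel-like factors, immediate early genes and IGF genes; circles, triangles and squares are the arrays of the N, VE and VE+N lines, short bars are the line means and the dotted line is the dim level of 4.25. Arrays of a line lie close together, the VE+N squares of Eda2r are at 7.62 and 8.05 above the N circles at 4.58 and 4.52, and those of Igfbp5 are at 6.17 and 6.23 below the N circles at 12.23 and 12.24.

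Genes of nitric oxide signalling changed on both the producing and the receiving side. Endothelial nitric oxide synthase (Nos3) makes the gas, and soluble guanylate cyclase, a heterodimer of Gucy1a1 and Gucy1b1 that is usually described in smooth muscle and platelets, answers it with cGMP. Nos3 read 10.53 and 10.51 on the N arrays and 9.75 and 9.67 on the VE+N arrays (−0.81 ± 0.101, adjusted p = 0.000891). Nostrin, whose product binds the synthase, read 8.60 and 8.57 against a dim 3.68 and 3.85 (−4.82). Gucy1b1 was dim in the N-labelled line at 3.95 and 3.64 and read 7.15 and 7.24 in the VE+N-labelled line (3.40 ± 0.129, adjusted p = 1.78e-06). Its partner Gucy1a1 followed, from a dim 3.98 and 4.09 to 6.49 and 6.57 (2.5 ± 0.102, adjusted p = 2.54e-06). Both subunits were also dim in the VE-labelled line, at means of 4.06 for Gucy1a1 and 3.97 for Gucy1b1, and the VE+N-labelled line exceeded that line by 2.47 (adjusted p = 9.52e-06) and 3.23 (adjusted p = 8.43e-06). Npr2, a membrane guanylate cyclase that binds C-type natriuretic peptide, rose by 3.36. The endothelin receptor Ednrb fell by 1.51 and Ddah1, which clears an inhibitor of nitric oxide synthesis, by 1.43, and the peptide gene Edn1 did not pass (0.18, adjusted p = 0.363). Across the 30 genes of nitric oxide, endothelin and vascular tone 6 rose and 10 fell, with a median of −0.15. Those shares were 20% against 10.2% of all genes for rises and 33.3% against 8.91% for falls.

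Receptors for extracellular nucleotides differed in both directions. Of 26 purine receptors and ectonucleotidases 6 were higher (23.1% against 10.2% of all genes) and 5 lower (19.2% against 8.91%). Calls were fewer without N replicate 1. P2ry2 and P2ry6, G protein-coupled receptors for UTP and UDP, read 5.51 and 5.88 and 4.88 and 4.73 on the N arrays. On the VE+N arrays they read 8.81 and 9.0 and 8.61 and 8.60, differences of 3.21 and 3.80. The ADP receptor P2ry1 fell by 1.33 and the ATP-gated channel P2rx7 by 2.55. Entpd1 (CD39), which breaks down ATP and ADP at the endothelial surface, read 9.95 and 10 against 6.40 and 6.64 (−3.46 ± 0.115, adjusted p = 9.21e-07), and the mean of the VE-labelled line was 5.11.

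Among 26 prostanoid genes 7 rose (26.9% against 10.2% of all genes) and 2 fell (7.69% against 8.91%). Ptgs2, the inducible cyclooxygenase, rose by 1.91, with VE+N arrays at 7.48 and 8.35 that stood far apart for a pair. The prostaglandin D synthase Hpgds rose by 3.06 from a dim level, the prostaglandin transporter Slco2a1 by 3.30 and the epoxide hydrolase Ephx1 by 3.30. The prostacyclin synthase Ptgis, the endothelial end of the pathway, did not pass (5.07 and 5.21 against 5.22 and 5.14, adjusted p = 0.854).

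Genes of glutathione, antioxidant and detoxification metabolism rose more often than they fell, 18 against 8 of 55 (32.7% against 10.2% of all genes, and 14.5% against 8.91%), with a median of 0.10. Without N replicate 2, 11 rose and 6 fell. The aryl hydrocarbon receptor Ahr, a ligand-activated transcription factor, read 8.69 and 8.65 on the N arrays and 11.01 and 11.08 on the VE+N arrays (2.38 ± 0.0956, adjusted p = 2.44e-06). Its repressor Ahrr read 4.45 and 4.40 against 8.43 and 8.69 (4.13). Cyp1b1, a well-known Ahr target, went the other way, from 7.95 and 8.07 to 6.10 and 6.01 (−1.95). The glutathione transferases Gstm4 and Gsta3 rose by 2.06 and 1.55, the former from a dim level with N arrays at 3.28 and 4.42. The paraoxonase Pon3 fell by 4.45 and the quinone reductase Nqo1 by 0.87, both to dim levels, and Hmox1 did not pass (0.26, adjusted p = 0.223).

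Retinoid genes held a large difference in few members. Rbp2, a cytoplasmic retinol carrier best known from the gut, read 4.78 and 4.94 on the N arrays and 10.31 and 10.31 on the VE+N arrays, 43.7-fold higher (5.45 ± 0.104, adjusted p = 1.99e-07). In the VE-labelled line it read 5.18, from which the VE+N-labelled line differed by 5.13 (adjusted p = 4.09e-07). The retinoic acid receptor Rarb rose by 3.23 and Rxra by 0.82, while Tgm2, a transglutaminase that retinoic acid induces in many cells, fell by 4.06 from 9.53 and 9.46. Of 32 genes in the list 5 rose and 2 fell, 21.9% called against 19.1% of all genes.

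**Figure D3:**
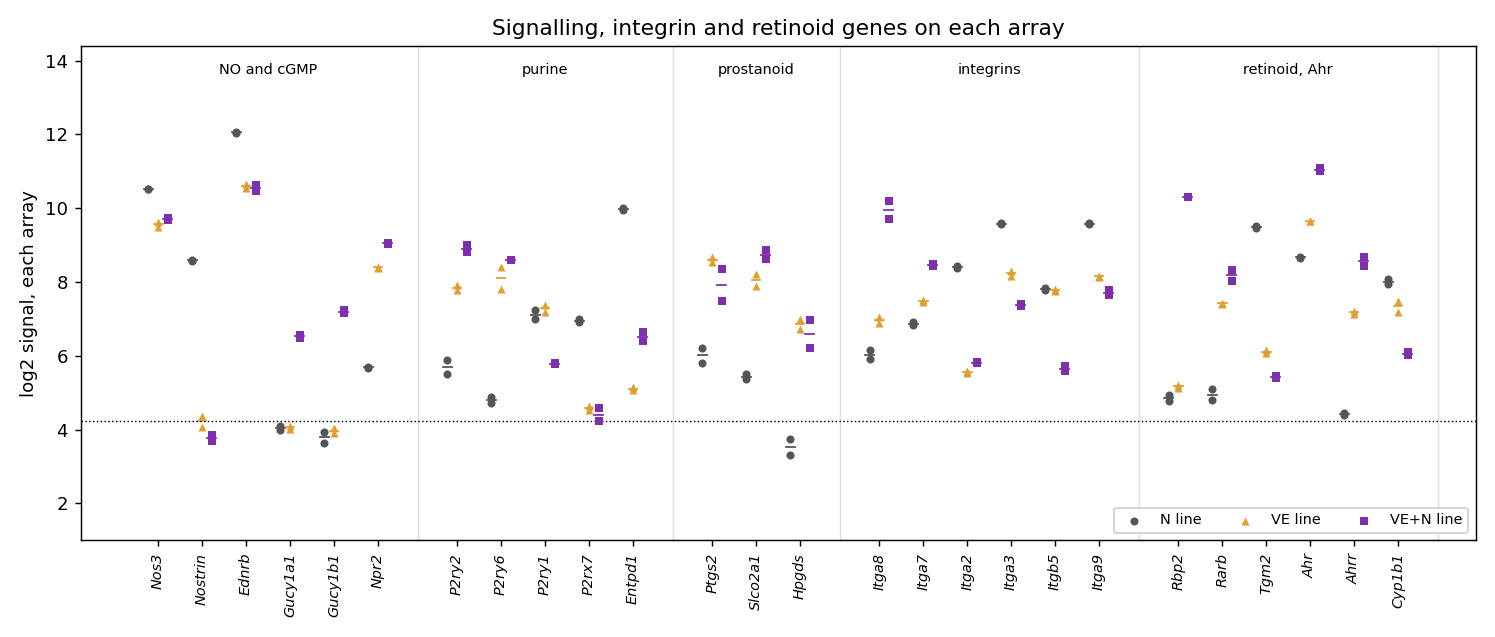
Log2 signal on each array (vertical axis) for genes of nitric oxide and cGMP, purine receptors, prostanoids, integrins, retinoids and Ahr; circles, triangles and squares are the arrays of the N, VE and VE+N lines, short bars are line means and the dotted line is the dim level of 4.25. Gucy1a1, Gucy1b1 and Rbp2 are high in the VE+N squares alone, at 6.49 to 10.31, with the N and VE arrays at or below 5.18 on average.

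Creatine and polyamine genes differed in both directions. Gatm, which had the largest rise of all genes called, the first enzyme of creatine synthesis, was dim on the N arrays at 2.46 and 2.86 and read 8.86 and 8.95 on the VE+N arrays (6.24 ± 0.145, adjusted p = 2.09e-07). Creatine kinase B (Ckb) rose by 2.54, and glutamine synthetase (Glul) read 7.70 and 7.71 against 10.86 and 11.06 (3.26). Of the polyamine genes, the rate-limiting enzyme Odc1 fell by 1.28, spermidine synthase Srm by 1.01 and the catabolic enzyme Sat1 by 1.14. In this list 5 of 23 genes rose (21.7% against 10.2% of all genes) and 4 fell (17.4% against 8.91%). Among glycolysis and hypoxia genes 9 of 45 rose (20% against 10.2%) and 16 fell (35.6% against 8.91%), with fewer calls without N replicate 1. Slc2a1 was at −0.58, Ldha at −0.38 and the repressor Bhlhe40 at −2.21. In fatty acid metabolism 9 of 54 genes rose (16.7% against 10.2%) and 12 fell (22.2% against 8.91%), again with fewer calls without N replicate 1. The uptake receptor Cd36 fell by 3.13 to a dim level.

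Integrin subunits differed by name. Of 25 measured 3 rose (12% against 10.2% of all genes) and 7 fell (28% against 8.91%). The common chains Itgb1, Itga5 and Itgav did not pass (adjusted p = 0.160, 0.382 and 0.623). Itga8, whose product pairs with the beta1 chain to bind RGD ligands such as fibronectin, read 5.91 and 6.15 on the N arrays and 9.70 and 10.20 on the VE+N arrays (3.92 ± 0.172, adjusted p = 3.64e-06). The laminin receptor chain Itga7 rose by 1.59. The collagen receptor chain Itga2 fell by 2.59, the laminin receptor chain Itga3 by 2.20, Itgb5 by 2.16 and Itga9 by 1.87. Their ligands fell too in part. Of 32 basement membrane genes 4 rose (12.5% against 10.2% of all genes) and 9 fell (28.1% against 8.91%). Fewer of them were called when either N array was left out. Laminin beta1 (Lamb1) was at −2.00, nidogens Nid1 and Nid2 at −0.65 and −1.20 and fibronectin (Fn1) at −0.84. Collagen IV chains Col4a1 and Col4a2 did not pass, and Col18a1, the source of endostatin, rose by 1.10. Of 29 matricellular proteins 3 rose (10.3% against 10.2% of all genes) and 8 fell (27.6% against 8.91%), with fewer calls without N replicate 1. Periostin (Postn), dim in the VE+N-labelled line, was at −2.5 and thrombospondin 1 (Thbs1) at −2.00.

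Caveolae, the membrane pits abundant in endothelium, were represented by Cav1, which rose from 8.95 and 8.91 to 10.16 and 10.18 (1.24, adjusted p = 9.07e-05), and by Cavin2, which rose from 6.72 and 6.65 to 9.10 and 9.23 (2.48, adjusted p = 2.48e-06). Cavin1 did not pass (0.33, adjusted p = 0.0533). The dynamin gene Dnm3 rose by 3.19 and the scavenger receptor Colec12 fell by 2.52. In the list of 33 caveolae and endocytosis genes 8 rose (24.2% against 10.2% of all genes) and 6 fell (18.2% against 8.91%). Lysosomal and autophagy genes leaned the other way, 5 of 43 higher (11.6% against 10.2% of all genes) and 11 lower (25.6% against 8.91%). The fall was large for Cd68 (11.55 and 11.56 against 8.62 and 8.74) and the protease Ctsz (−3.11). Lamp1 and Ctsd did not pass (adjusted p = 0.658 and 0.109).

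Some cytokine receptors and chemokines differed widely. Il13ra2, a decoy receptor for interleukin 13, read a dim 4.25 and 4.18 on the N arrays and 9.74 and 10.26 on the VE+N arrays (5.79), and the signalling chains Il4ra and Csf2rb rose by 1.47 and 2.14. Interleukin 33 (Il33), a nuclear alarmin of endothelium, rose by 3.70, and Il6 fell by 2.37 to a dim level. Of 64 genes in this list 10 rose (15.6% against 10.2% of all genes) and 9 fell (14.1% against 8.91%). Among 46 chemokines and receptors 2 rose and 7 fell, 19.6% called, close to the 19.1% of all genes. Ccl2, which draws monocytes, fell by 2.51, Cxcr3 by 2.93 and Cxcr4 by 2.10, and Ackr3, which scavenges the Cxcr4 ligand, rose by 1.93.

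Kit and Pdgfrb, receptor tyrosine kinases known from blood and mural cells, fell steeply. Kit read 9.73 and 9.76 on the N arrays and 5.07 and 5.19 on the VE+N arrays (−4.62 ± 0.0992, adjusted p = 1.99e-07), and its ligand Kitl did not pass (0.27, adjusted p = 0.0901). Pdgfrb, the receptor by which mural cells answer endothelial Pdgfb, read 8.94 and 9.13 against a dim 4.19 and 4.18. The ligand Pdgfb fell by 0.93 and Pdgfc rose by 1.45. Of 12 genes in this list 1 rose (8.33% against 10.2% of all genes) and 4 fell (33.3% against 8.91%). The part of mural cells in the fall of Pdgfrb was not tested, and the mural marker Rgs5 was dim in both lines while Acta2 fell by 2.27.

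Some myeloid genes were high in the N-labelled line although the markers of blood cells were not. Lcp1, an actin bundling protein of leukocytes, read 9.76 and 9.69 on the N arrays and 5.08 and 5.27 on the VE+N arrays, and the inhibitory receptors Lilrb4a and Lilr4b fell by 5.27 and 4.81 to dim levels. Both receptor genes belong to a family of near-identical copies whose probes may not separate them. Of 37 haematopoietic and myeloid genes 2 rose and 6 fell, 21.6% called against 19.1% of all genes, and 14 were dim in both lines.

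Of 44 genes of the unfolded protein and amino acid responses 6 rose and 10 fell, 36.4% called against 19.1% of all genes, with the chaperone Hspa5 at −1.05 and Xbp1 at −0.83, and 1 of 22 heat shock genes rose and 5 fell (27.3% called). The riser was Cryab, a small heat shock protein, which read 6.43 and 6.22 on the N arrays and 9.37 and 9.46 on the VE+N arrays (3.09). Of 34 proteasome subunit genes 0 were called by limma, with 1 higher and 5 lower at an unadjusted p under 0.05 and 0 by the analysis of variance. With a trended robust prior limma called 1 higher and 3 lower of these proteasome subunit genes, and without the dimmest 25% of genes 1 higher and 2 lower. Of 69 respiratory chain genes 5 rose and 2 fell, 10.1% called against 19.1% of all genes, and fewer when either N array was left out. Of 22 pluripotency genes 1 rose and 1 fell (9.09%), and of 26 neural genes 3 rose and 3 fell (23.1%, and 3 calls in all without N replicate 1 or without VE+N replicate 2), against 19.1% of all genes.

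**Figure D4:**
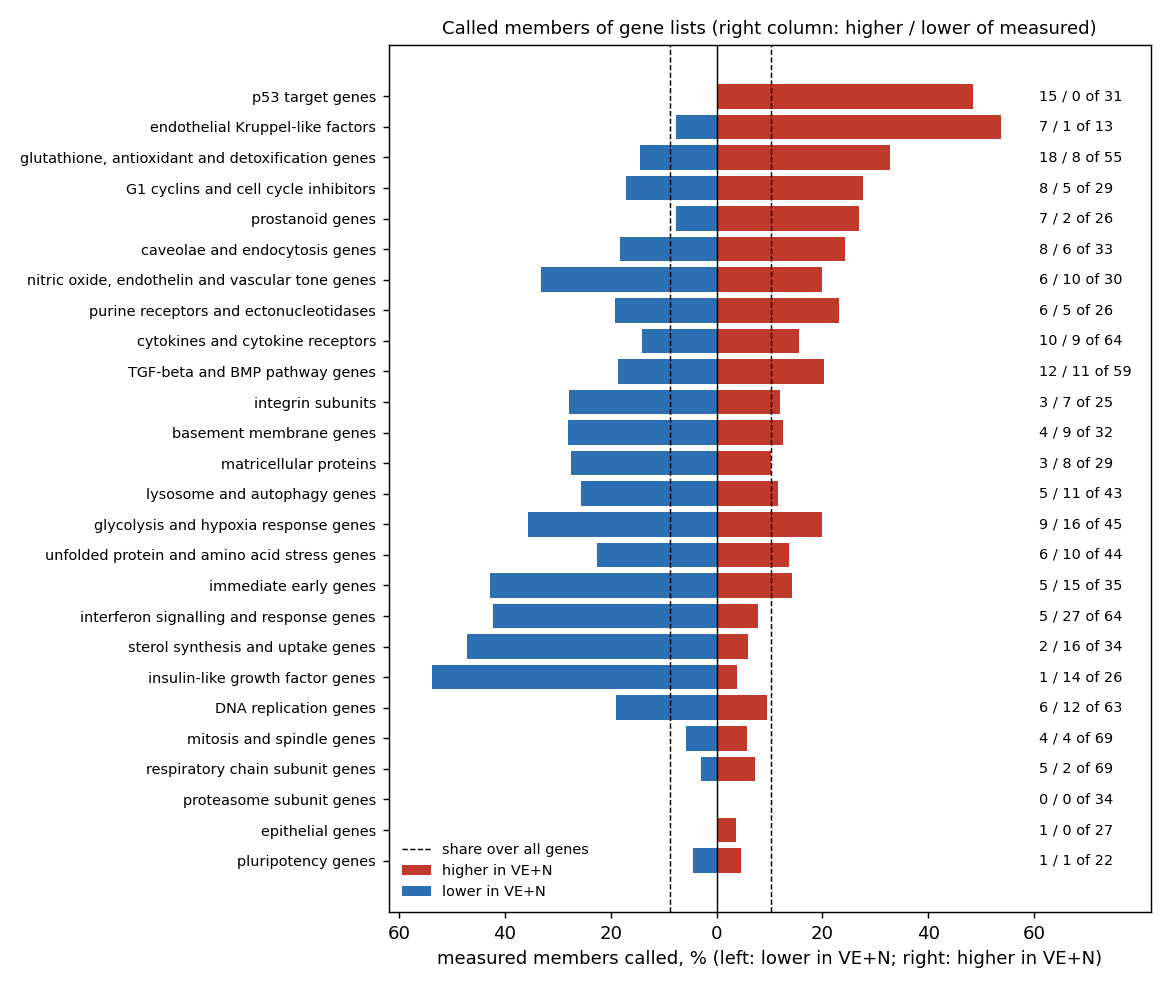
Share of the measured members of 26 gene lists called higher (red, right) or lower (blue, left) in the VE+N-labelled line, in percent on the horizontal axis; dashed lines are the shares over all genes, 10.2% higher and 8.91% lower, and the column at the right gives higher and lower calls of measured members. The p53 target list has 15 higher and 0 lower of 31, and the insulin-like growth factor list 1 higher and 14 lower of 26.

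Of 64 interferon genes 27 fell (42.2% against 8.91% of all genes) and 5 rose (7.81% against 10.2%), with a median of −0.30. Of 34 sterol genes 16 fell (47.1% against 8.91%) and 2 rose (5.88% against 10.2%), with a median of −0.31. The analysis of variance called 9 interferon and 8 sterol genes lower and 1 of each higher. Over all 19936 genes it called 907 lower and 960 higher. The promoters of these lists were read for the binding motif of their main regulators, in windows from 250 bases before to 50 after a gene start (RefSeq, GRCm38.p6). The interferon-stimulated response element, searched as GAAANNGAAA on both strands with overlapping matches allowed, was in the promoters of 19 of 51 interferon genes with a sequence (37.3%), against 3.99% of all 27025 genes with one. It was in 10 of 22 that fell, 0 of 3 that rose and 9 of 26 that were not called. The windows around a match in 5 of the 10 that fell are shown as examples of the element, chosen after their values were seen, with the match in capitals (TTTC marks the reverse strand).
Rsad2: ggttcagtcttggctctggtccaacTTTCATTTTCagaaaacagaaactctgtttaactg
Oas1a: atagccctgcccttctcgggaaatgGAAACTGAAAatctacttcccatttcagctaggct
Ifih1: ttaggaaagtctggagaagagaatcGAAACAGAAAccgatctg
Ifit1: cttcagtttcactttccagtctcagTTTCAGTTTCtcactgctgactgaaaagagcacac
Irgm1: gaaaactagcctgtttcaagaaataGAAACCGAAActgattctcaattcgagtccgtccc

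These stretches lie at chr12:26456538-26456597 (minus strand) for Rsad2, chr5:120907505-120907564 (minus) for Oas1a, chr2:62646206-62646248 (minus) for Ifih1, chr19:34640779-34640838 (plus) for Ifit1 and chr11:48871410-48871469 (minus) for Irgm1. Relative to the gene start, the match in capitals begins at −120 in Rsad2, −14 in Oas1a, −85 in Ifit1, −24 in Irgm1 and 32 in Ifih1. Another match within the stretch, not marked, begins at −20 in Oas1a, −104 in Ifit1 and −30 in Irgm1. Rsad2, the antiviral protein viperin, read 9.68 and 9.90 on the N arrays and 7.05 and 7.35 on the VE+N arrays (−2.58). Oas1a, a sensor of double-stranded RNA, read 6.52 and 6.16 against 4.31 and 4.72 (−1.83). Ifit1 was at the edge of the threshold (−0.69, adjusted p = 0.0496), and Ifih1 and Irgm1, named for their motif after their values were seen, fell by 1.43 and 0.91. The sterol regulatory element, searched as TCACNCCAC on both strands, was in the promoter of 1 of 27 sterol genes, Hmgcs1, against 1.44% of all genes. Its window is shown as the single match of that list, again with the match in capitals.
Hmgcs1: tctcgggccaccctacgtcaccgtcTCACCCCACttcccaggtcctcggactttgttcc

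This stretch lies at chr13:119690189-119690247 on the plus strand. Hmgcs1, also named for its motif, is an early enzyme of sterol synthesis and fell by 0.97. A match is a description of the letters and does not show that a factor binds there.

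Called genes were unevenly spread over the chromosomes. On chromosome 10, 276 of 939 genes were higher (29.4% against 10.2% of all genes) and 63 lower, and among its 670 genes above the dim level the median difference was 0.25. Over all its genes the median was 0.11, and against the VE-labelled line the median over all its genes was 0.15. Chromosome 18 held the highest share of lower calls, 86 of 471 genes (18.3% against 8.91%), and chromosome 5 followed with 13.1%. Of the genes described above, Mdm2, Sesn1, Igf1, Itga7, Plagl1 and Col18a1, which rose, Lilrb4a and Lilr4b, which fell, and Kitl lie on chromosome 10. Without that chromosome 12 of 26 p53 targets rose and 0 fell, and over all genes 1749 were higher (9.21%) and 1714 lower (9.02%). The sequence or copy number of the lines' genomes was not analysed here.

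**Figure D5:**
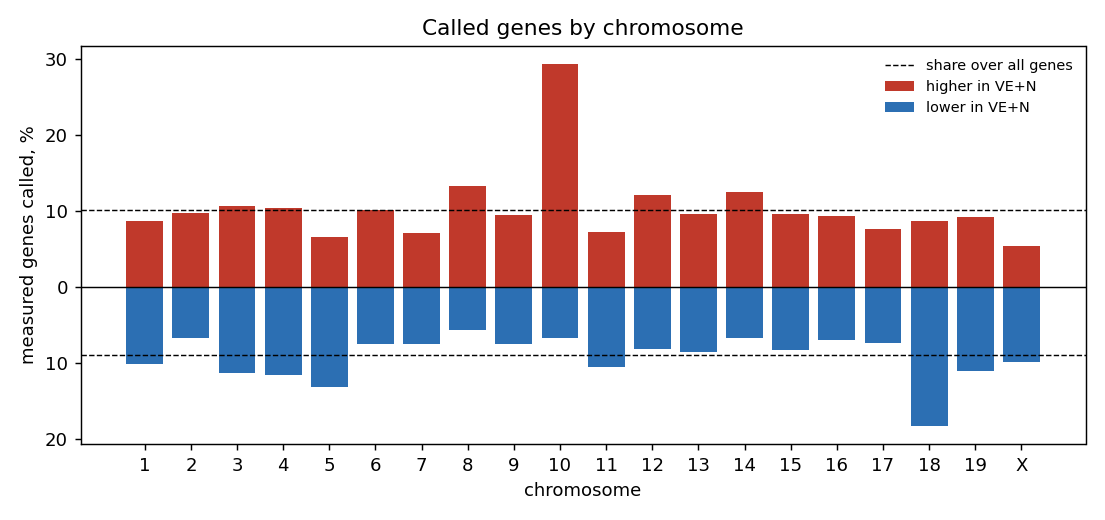
Share of the measured genes of each chromosome (horizontal axis) called higher (red, upward) or lower (blue, downward) in the VE+N-labelled line, in percent; dashed lines are the shares over all genes, 10.2% and 8.91%. Chromosome 10 reaches 29.4% higher calls and chromosome 18 reaches 18.3% lower calls.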

How the data were processed

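The log2 values are those the authors deposited, with RMA and Partek 6.3 named in the submitters' processing notes. This method corrects background, quantile-normalizes probes and summarizes probe sets, so levels are relative to the other genes of an array. That the scale is log2 was judged by the values' range. Of 35556 probe sets, 21789 carried a single symbol, 1621 several and 12146 none. For each of 19936 genes the brightest probe set on average was kept, and no filter on signal was applied. Differences were fitted with limma 3.58.1 (R 4.3.3) on line means over all 6 arrays (3 residual and 4.89 prior degrees of freedom). Arrays have no depth, and their number limits precision. On simulated data, 82.2% of genes changed by 1 log2 unit and 6% of those changed by 0.5 were recovered, with 4.68% false calls. There were 78 gene lists. Members and lists were chosen with earlier results of these data known, and no list was tested as a set. Genes described were drawn from a pool of 687, of which not all are described, made of Cdh2 and Cdh5, the 15 largest rises and falls and, in each list, its first 3 members, up to 6 called members that differed most and up to 2 of the brightest not called. Cell type markers are also named, and others are stated to be chosen after their values were seen. The alternatives tried were other sample sets, a replicate block, array weights, variance priors, scalings, filters, probe set means, the methods' analysis of variance, treat and each array left out. Probe sets without a single symbol were left out of gene tests.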

Additional observations from a re-analysis of the deposited data

How the results depend on the processing

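Of the 687 genes that the naming rule allows, 453 were called, and 0 reversed in any of the alternative analyses that tested them. A reversal means a change of sign in a gene called in the reported or the alternative analysis. Changes of sign in genes called in neither were not counted. A reversal was possible only where the difference itself could change, with rescaling, probe set means or an N or VE+N array left out. Many of these genes were picked for large differences, which makes a reversal unlikely in advance. Against 3802 calls as reported, there were 1867 with the methods' analysis of variance after Benjamini-Hochberg adjustment and 795 with treat against 1.5-fold. Leaving out 1 array at a time gave 2243 to 3800 calls, 903 to 1002 genes over 2-fold and 49.3% to 55.6% of calls higher. With a replicate block 3864 genes were called, 920 over 2-fold, and 53.5% of calls were higher. The deviations of same-numbered N and VE+N arrays correlated at 0.123 with only 2 pairs, so the numbers were not taken to pair the arrays, and of 453 calls among the 687 genes the block lost 3. The analysis of variance lost 134 of them, treat 180, and leaving out N replicate 1 or N replicate 2 lost 52 or 63. Median centring gave 49.8% higher calls, and the remaining alternatives gave 3247 to 4634 calls. Without the genes of chromosome 10, an alternative chosen after seeing the data, 1749 genes were called higher and 1714 lower. Only 6% of changes of 0.5 were recovered in a simulation with 200 changed genes, where the adjusted threshold is stricter than with 3802 calls. Recovery in the real data was not measured, and a gene not called may still differ by that much.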

Other observations

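Hox genes, which record the position of a cell along the body axis, differed in both directions between the lines. Of 41 Hox genes and cofactors 6 rose (14.6% against 10.2% of all genes) and 8 fell (19.5% against 8.91%). Their calls were fewer when either N array was left out. Hoxd10 read 6.50 and 6.70 on the N arrays and 4.47 and 4.33 on the VE+N arrays (−2.20), and Hoxa10 and Hoxb6 fell by 0.85 and 0.83. Hoxa2 and the cofactor Meis2 rose by 1.40 and 1.26, while Meis1 did not pass (adjusted p = 0.766).

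Of 9 genes of the Y chromosome 3 rose (33.3% against 10.2% of all genes), 6 did not pass, and 3 lay above the dim level. Eif2s3y read 7.90 and 7.95 on the N arrays and 8.76 and 9.13 on the VE+N arrays (1.02, adjusted p = 0.0012), and Uty read 7.28 and 7.45 against 8.11 and 8.53 (0.95, adjusted p = 0.00315). Zfy2, named after its value was seen, rose by 0.57 within the dim range. Eif2s3x, the X-linked counterpart of Eif2s3y, did not pass (0.22, adjusted p = 0.351). Xist was dim on all 4 arrays, at 2.88 to 3.18.

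Of 55 ion channel genes 8 rose and 6 fell, 25.5% called against 19.1% of all genes. Kcnj2, an inward rectifier that sets the resting potential of endothelium, read 9.20 and 9.24 on the N arrays and a dim 3.48 and 3.77 on the VE+N arrays (−5.59), and the stretch-activated channel Piezo2 fell by 2.30, whereas Piezo1 did not pass (0.41, adjusted p = 0.0561). The urea transporter Slc14a1 rose by 5.48 and the water channel Aqp1 by 1.32. Aqp1 averaged 7.29 in the VE-labelled line.

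Of 31 circadian and nuclear receptor genes 6 rose and 4 fell, 32.3% called against 19.1% of all genes, with Cry2 higher by 1.57 and Arntl by 0.86, while Clock, Nr1d1 and Per2 did not pass. The glucocorticoid targets Fkbp5 and Tsc22d3 went in opposite directions, at −1.34 and 1.02.

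A separate limma fit covered all 35556 probe sets, with Benjamini-Hochberg adjustment over them. Of its 13767 probe sets without a single gene symbol 532 were called (3.86%), 242 of them over 2-fold. That share comes from another adjustment than the 19.1% of genes.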
